A study of Mus musculus with 4 samples.

Results

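Expression of 8 genes that act on plasma lipoproteins was examined in the liver of ob/ob mice. They were Lipc, Lipg, Lcat, Pltp, Apom, Scarb1, Lrp1 and Sort1, taken by symbol from the 24346 gene symbols in the tables, and all 8 were found in each library. The mice were male and lack leptin, which makes them obese. From 6 weeks of age they were fed for 4 weeks with chow (CD), CD with 0.01% 7-ketocholesterol (CD+7KC), a western type diet rich in sucrose and cocoa butter (WD), or WD with 0.01% 7-ketocholesterol (WD+7KC). Cholesterol made up 1% of every diet. 7-Ketocholesterol (7KC) is an oxidized form of cholesterol. The study asked whether a small dietary amount of it alters fat storage and inflammation in the liver. Each group had 1 library, and the sources used here do not state how many mice it came from.

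The liver secretes lipoproteins, remodels them in the circulation and takes their lipid back. Lipases cut the triglyceride and phospholipid of circulating particles, LCAT esterifies the cholesterol of HDL, and PLTP moves phospholipid between particles. HDL cholesterol then returns to hepatocytes through the receptor SR-BI, while LRP1 takes up remnant particles whole. Sortilin acts inside the cell, where it routes apolipoprotein B.

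Values are FPKM, the fragments per kilobase of exon scaled to library depth, as the authors deposited them, so that levels may be compared between genes per transcript length. Because each group had 1 library, differences could not be set against replicates and were not tested. Steps between low FPKM values gave an estimated depth of 9400000 fragments in WD, the shallowest library, to 12100000 in WD+7KC, the deepest. Read numbers estimated from this depth gave exact (Clopper-Pearson) 95% intervals for each ratio between libraries. The intervals cover counting error only, not variation between mice. Log2 ratios were computed on FPKM + 0.1, which slightly understates the change of the lowest gene, Sort1.

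Hepatocyte markers were abundant, and Alb (albumin) was the highest gene in every library. The library makeup differed between groups. The summed level of 7 hepatocyte markers came to 44394 FPKM with CD, 39425 with CD+7KC, 44832 with WD and 36503 with WD+7KC. Alb made up most of this sum, at 35084 FPKM with CD and 35981 with WD. Gene by gene, 6 of the 7 were lower and 1 higher in WD relative to CD (median log2 ratio -0.20). The sum of 10 macrophage and Kupffer cell markers came to 172 FPKM with CD, 262 with CD+7KC, 283 with WD and 566 with WD+7KC, and that of 8 endothelial markers was 63.9, 92.0, 50.4 and 144 FPKM in the same order. None of these 25 markers was at 0 in any library. In WD+7KC relative to WD, 7 of 7 hepatocyte markers were lower, 10 of 10 macrophage markers higher and 8 of 8 endothelial markers higher. Among the other lists, 1 of 5 stellate cell markers and 4 of 5 biliary markers were higher in that comparison. Of 3 adipocyte markers, Plin1 was at 0 in every library and Adipoq in both WD libraries, while Fabp4 reached 104 FPKM with WD and 143 with WD+7KC. In bulk liver, fewer cells of a type and less RNA per cell cannot be told apart. Each ratio was therefore also computed after rescaling FPKM to equal sums in all libraries (equal sums), and after scaling the libraries to the 7 hepatocyte markers, a choice made after the values had been seen. This scaling used each library's median ratio to the geometric mean over the 4 libraries, and it left the markers' own median in WD+7KC relative to WD at 0.10, from -0.20 as deposited. What part these shifts had in the results was not tested.

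The levels of the 8 genes spanned a wide range per length of transcript. Lcat was the highest in every library, at a mean of 217 FPKM, and Apom followed with 125 FPKM. Lipc at 65.8 FPKM, Scarb1 at 61.2 FPKM and Pltp at 52.5 FPKM formed the middle, with Lrp1 at 27.7 FPKM below them. Lipg, at 6.60 FPKM, and Sort1, at 1.93 FPKM, were low. The highest library exceeded the lowest by 2.36-fold in Lipc, 1.61-fold in Pltp, 1.57-fold in Sort1, 1.54-fold in Lipg and 1.41-fold in Apom, but by only 1.23-fold in Lcat, 1.21-fold in Lrp1 and 1.13-fold in Scarb1. When the libraries were ordered by level within each gene, the counting interval included 0 for 14 of the 24 neighbouring pairs.

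**Figure D1:**
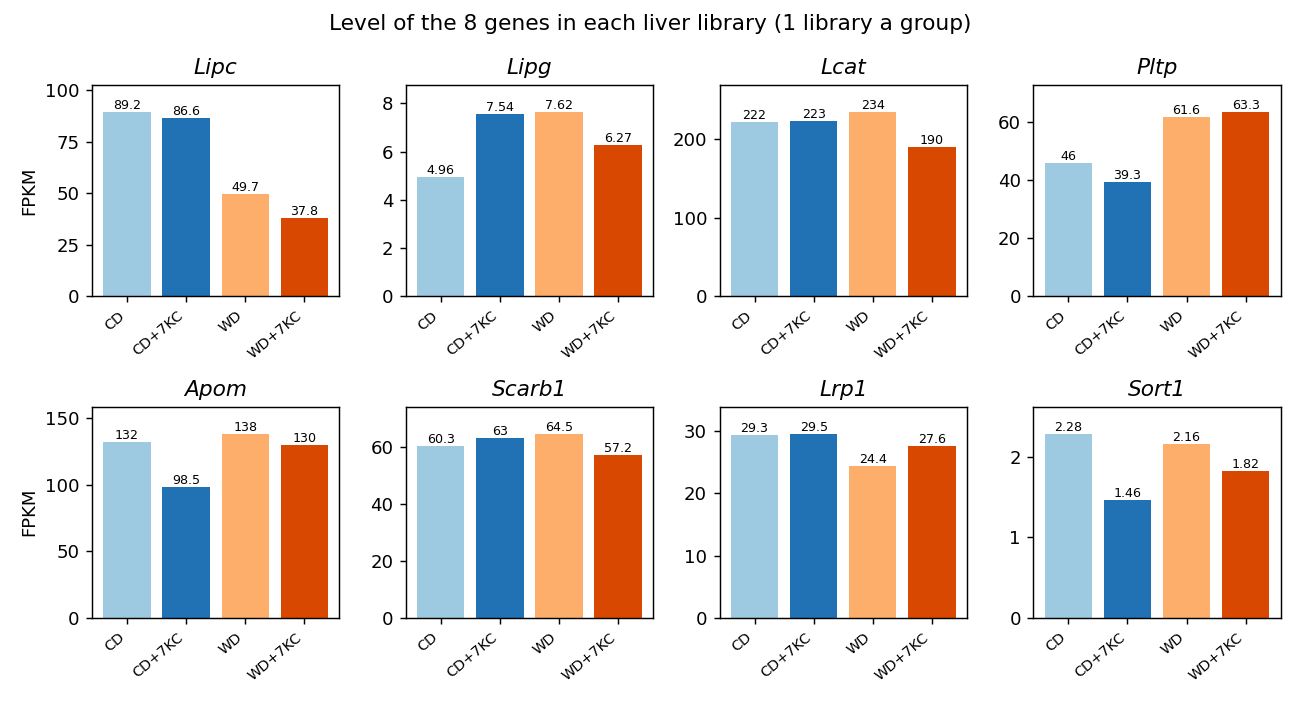
FPKM (vertical axis, from 0) of each of the 8 genes in the CD, CD+7KC, WD and WD+7KC libraries, 1 bar per library and no error bar because each group had 1 library. Lipc is at 89.2 FPKM in CD and 37.8 FPKM in WD+7KC, while Scarb1 stays between 57.2 and 64.5 FPKM.

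Lipc (NCBI gene 15450, chromosome 9, 70798128 to 70952221, minus strand, GRCm38) encodes hepatic lipase, which hydrolyses triglyceride and phospholipid of remnant particles and HDL. It measured 89.2 FPKM with CD, 86.6 with CD+7KC, 49.7 with WD and 37.8 with WD+7KC. Both WD libraries were thus below both CD libraries. WD was 1.79-fold lower than CD, a log2 ratio of -0.84 (95% counting interval -0.98 to -0.72), and WD+7KC was 2.29-fold lower than CD+7KC, a log2 ratio of -1.2 (-1.33 to -1.07). Scaled to the hepatocyte markers the ratios were -0.63 (-0.76 to -0.50) and -0.73 (-0.86 to -0.60). Between CD and CD+7KC the interval included 0. WD+7KC was 1.31-fold lower than WD, at -0.39 (-0.55 to -0.24). This last ratio was -0.18 (-0.33 to -0.026) with equal sums, still below 0. With hepatocyte marker scaling it was -0.099 (-0.25 to 0.054), whose interval includes 0.

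Lipc had the largest diet difference of the 8 genes and Pltp the largest in the other direction with 7KC present, so the sequences around their start sites are shown (RefSeq, GRCm38.p6, minus strand, 250 bases before to 50 after the start). RefSeq promoter entries matched 5 of the 8 genes (Lipc, Lcat, Pltp, Apom and Lrp1). Lipc has an upstream start and a second one inside the gene. Capitals mark the GC box GGGCGG, the CCAAT box CCAAT and the nuclear receptor hexamer AGGTCA, on either strand; none of the matches overlaps another.
Lipc upstream start, chr9:70952172-70952471: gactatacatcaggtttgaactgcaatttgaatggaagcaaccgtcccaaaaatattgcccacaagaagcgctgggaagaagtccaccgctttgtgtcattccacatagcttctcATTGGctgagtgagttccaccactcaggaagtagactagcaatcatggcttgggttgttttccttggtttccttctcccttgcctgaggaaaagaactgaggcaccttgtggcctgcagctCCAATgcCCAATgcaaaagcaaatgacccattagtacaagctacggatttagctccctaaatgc
Lipc inner start, chr9:70934759-70935058: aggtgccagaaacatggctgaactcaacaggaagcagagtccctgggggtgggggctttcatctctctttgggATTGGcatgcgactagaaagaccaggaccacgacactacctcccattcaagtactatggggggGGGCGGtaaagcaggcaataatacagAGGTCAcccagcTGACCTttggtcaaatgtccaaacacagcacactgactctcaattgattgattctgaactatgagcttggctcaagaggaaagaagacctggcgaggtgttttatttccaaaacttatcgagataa
Pltp start, chr2:164857659-164857958: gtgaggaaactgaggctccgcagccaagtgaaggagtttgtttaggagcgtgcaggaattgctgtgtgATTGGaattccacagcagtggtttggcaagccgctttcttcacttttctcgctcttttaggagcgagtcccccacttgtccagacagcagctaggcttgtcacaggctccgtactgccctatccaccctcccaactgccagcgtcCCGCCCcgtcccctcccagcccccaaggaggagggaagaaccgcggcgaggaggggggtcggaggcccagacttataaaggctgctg
The inner Lipc sequence holds AGGTCA starting 88 bases and TGACCT starting 76 bases before the start site, and neither the upstream Lipc sequence nor that of Pltp holds the hexamer. Of 32851 promoters of this length, 16.3% hold AGGTCA on either strand, 35.7% hold GGGCGG and 37.4% hold CCAAT. The sterol regulatory element TCACNCCAC (1.24% of promoters) and the E-box CACGTG (7.15%) were searched for in the 5 genes and had no match in these windows. The files do not separate reads by start site, so no level can be given for either Lipc start.

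Lipg (NCBI gene 16891, chromosome 18, 74939322 to 74961263) encodes endothelial lipase, a phospholipase that acts mainly on HDL. It measured 4.96 FPKM with CD, 7.54 with CD+7KC, 7.62 with WD and 6.27 with WD+7KC, from an estimated 194, 296, 258 and 272 reads. CD was the lowest library, and CD+7KC and WD could not be told apart (log2 ratio of WD to CD+7KC 0.015, interval -0.23 to 0.26). CD+7KC was 1.51-fold higher than CD, a log2 ratio of 0.59 (0.34 to 0.87), and WD was 1.53-fold higher than CD, at 0.61 (0.35 to 0.90). WD+7KC was below WD, at -0.28 (-0.53 to -0.031), which became 0.015 (-0.24 to 0.27) with hepatocyte marker scaling. The summed endothelial markers were at 92.0 FPKM in CD+7KC against 63.9 in CD, and at 50.4 FPKM in WD, where Lipg was highest. The ratio of Lipc to Lipg was 18.0 with CD, 11.5 with CD+7KC, 6.51 with WD and 6.02 with WD+7KC. Being a ratio within a library, it does not depend on the scaling.

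Lcat (NCBI gene 16816, chromosome 8, 105939551 to 105943402) encodes lecithin-cholesterol acyltransferase, which the liver secretes. It measured 222 FPKM with CD, 223 with CD+7KC, 234 with WD and 190 with WD+7KC. On the deposited scale the first 3 libraries lay close together and WD+7KC was the lowest. WD+7KC was 1.23-fold lower than WD, at -0.30 (-0.38 to -0.22). It was -0.085 (-0.16 to -0.0057) with equal sums and -0.0053 (-0.085 to 0.074) with hepatocyte marker scaling. WD+7KC relative to CD+7KC was -0.24 (-0.31 to -0.16) as deposited and -0.027 (-0.10 to 0.050) with equal sums. Hepatocyte marker scaling turned it to 0.23 (0.15 to 0.31). That scaling also took WD relative to CD from 0.072 (-0.0068 to 0.15) to 0.29 (0.21 to 0.37).

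Pltp (NCBI gene 18830, chromosome 2, 164839518 to 164857708) encodes phospholipid transfer protein. It measured 46.0 FPKM with CD, 39.3 with CD+7KC, 61.6 with WD and 63.3 with WD+7KC. Both WD libraries were above both CD libraries, the reverse of Lipc. The log2 ratio was 0.42 (0.28 to 0.56) in WD relative to CD and 0.68 (0.55 to 0.82), or 1.61-fold, in WD+7KC relative to CD+7KC. With 7KC the level was lower in CD+7KC than in CD, at -0.23 (-0.38 to -0.079), while the interval for WD+7KC relative to WD included 0, at 0.039 (-0.084 to 0.16). The latter ratio was above 0 with equal sums, at 0.25 (0.13 to 0.38), and with hepatocyte marker scaling, at 0.33 (0.21 to 0.46). Hepatocyte marker scaling also took WD relative to CD past 1.5-fold, at 0.64 (0.50 to 0.77). The 3′ part of Pltp overlaps Ctsa on the opposite strand over 19.3% of its exonic bases. Ctsa, which encodes a lysosomal carboxypeptidase, measured 33.5 FPKM with CD, 34.0 with CD+7KC, 56.2 with WD and 62.7 with WD+7KC. The library kit was stranded, but whether Cufflinks used the strand is not given in the sources used here, so a share of the Pltp difference between the diets cannot be told apart from that of Ctsa. The macrophage marker sum was also higher with WD than with CD (283 against 172 FPKM) and with WD+7KC than with CD+7KC (566 against 262 FPKM). That sum was higher with CD+7KC than with CD too, where Pltp was lower. It was likewise higher with WD+7KC than with WD, where the deposited Pltp ratio had an interval including 0. What part macrophages had in the Pltp level was not tested. The ratio of Lcat to Pltp was highest with CD+7KC, at 5.68, and was 4.83 with CD and 3.79 with WD, with its lowest value in WD+7KC.

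Apom (NCBI gene 55938, chromosome 17, 35128997 to 35131801) encodes apolipoprotein M, the HDL protein that carries sphingosine-1-phosphate. It measured 132 FPKM with CD, 98.5 with CD+7KC, 138 with WD and 130 with WD+7KC. CD+7KC stood below the other libraries, which could not be told apart from their neighbours in the order of levels. CD+7KC was 1.34-fold lower than CD, at -0.43 (-0.55 to -0.30), and the same ratio was -0.38 (-0.51 to -0.25) with hepatocyte marker scaling. Relative to CD+7KC, WD+7KC was 1.32-fold higher, at 0.40 (0.28 to 0.53), and passed 1.5-fold with equal sums, at 0.61 (0.49 to 0.74), and with hepatocyte marker scaling, at 0.87 (0.74 to 0.99). The ratio of WD+7KC to WD was -0.089 (-0.21 to 0.030) and turned to 0.21 (0.089 to 0.33) with that scaling.

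Scarb1 (NCBI gene 20778, chromosome 5, 125277087 to 125341094) encodes SR-BI, which takes up cholesteryl ester from HDL without engulfing the particle. On the deposited scale its level varied least of the 8 genes, though with equal sums and with hepatocyte marker scaling Lcat varied less. Scarb1 measured 60.3 FPKM with CD, 63.0 with CD+7KC, 64.5 with WD and 57.2 with WD+7KC. Each library was within counting error of the next in the order of levels. WD+7KC, the lowest library, was below WD at -0.17 (-0.28 to -0.065) and below CD+7KC at -0.14 (-0.24 to -0.034). These ratios turned to 0.12 (0.016 to 0.23) and 0.33 (0.22 to 0.43) with hepatocyte marker scaling. With equal sums they were 0.044 (-0.064 to 0.15) and 0.071 (-0.033 to 0.18), and both intervals included 0. The splice forms of Scarb1 share 1 value in the tables and were not separated.

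Lrp1 (NCBI gene 16971, chromosome 10, 127538157 to 127621148) encodes a very large endocytic receptor of hepatocytes, macrophages and stellate cells. With a transcript of 14888 bases it had the most reads of the 8 genes, between an estimated 3385 and 4910 a library, and so the narrowest intervals. It measured 29.3 FPKM with CD, 29.5 with CD+7KC, 24.4 with WD and 27.6 with WD+7KC. WD was the lowest library, below CD at -0.26 (-0.33 to -0.20). WD+7KC was 1.13-fold above WD, at 0.18 (0.11 to 0.24), the only interval of the 8 that lay above 0 in that comparison on the deposited scale. With equal sums those of Pltp and Apom did so too, and with hepatocyte marker scaling those of Pltp, Apom and Scarb1. With hepatocyte marker scaling WD relative to CD was -0.047 (-0.11 to 0.017), and WD+7KC relative to WD was 0.47 (0.41 to 0.54). The macrophage marker sum was also higher with WD+7KC than with WD (566 against 283 FPKM). That sum was higher with WD than with CD too (283 against 172 FPKM), where deposited Lrp1 was lower. It exceeded the CD value with CD+7KC (262 against 172 FPKM), where the Lrp1 interval included 0. Between the 7KC diets it was higher with WD+7KC (566 against 262 FPKM), where deposited Lrp1 was slightly lower, at -0.093. What part macrophages had in the Lrp1 level was not tested.

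Sort1 (NCBI gene 20661, chromosome 3, 108283974 to 108361519) encodes sortilin, a sorting receptor of the Golgi. It measured 2.28 FPKM with CD, 1.46 with CD+7KC, 2.16 with WD and 1.82 with WD+7KC, from at least an estimated 105 reads in each library. CD+7KC was 1.53-fold lower than CD, at -0.61 (-1.02 to -0.29). The other comparisons had intervals that included 0 on the deposited scale. WD+7KC relative to CD+7KC was 0.30 (-0.050 to 0.70) on that scale, 0.50 (0.16 to 0.91) with equal sums and 0.74 (0.42 to 1.17) with hepatocyte marker scaling. The ratio of CD+7KC to CD lay within 1.5-fold under 4 of 8 other settings, at -0.57 with hepatocyte marker scaling. An antisense gene shares 4.5% of the exonic bases of Sort1.

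The 4 comparisons were then read across the 8 genes against all genes. With 7KC in WD, 2 of the 8 were higher and 6 lower than without it, the median log2 ratio being -0.21, and none passed 1.5-fold in either direction. Over all 15753 genes above 0 FPKM in either library, 21.0% passed 1.5-fold (12.6% of those with at least 1 FPKM, 9.15% upwards and 3.42% downwards), and the median was 0.0021. Among the 4862 genes with at least 10 FPKM, where 6 of the 8 belong, 70.3% were lower and the median was -0.11. Equal sums of FPKM moved the median over the 8 to 0.0055 and that of all genes to 0.21, and hepatocyte marker scaling moved them to 0.084 and 0.28. In CD+7KC relative to CD, 4 were higher and 4 lower (median -0.018, against -0.0012 over all genes), with Lipg above and Sort1 below 1.5-fold. That is 2 of 8, where 17.5% of all genes and 8.36% of genes with at least 1 FPKM passed 1.5-fold (4.92% upwards and 3.44% downwards). Both genes lay just past the threshold, at 1.51-fold and 1.53-fold.

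In WD relative to CD, 5 were above and 3 below CD, the median being 0.068 against 0.0097 over all genes. Lipg passed 1.5-fold upwards and Lipc downwards, 2 of 8, while 24.2% of all genes and 16.8% of those with at least 1 FPKM (9.22% upwards and 7.55% downwards) passed it. Between the 7KC diets, WD+7KC relative to CD+7KC, 3 were above and 5 below, the median being -0.12 against 0.0026. Pltp passed 1.5-fold upwards and Lipc downwards, again 2 of 8, beside 28.9% of all genes and 22.3% of those with at least 1 FPKM (13.5% upwards and 8.75% downwards). In both diet comparisons the share of the 8 past 1.5-fold was thus near that of all genes. Among genes with at least 1 FPKM, 3.5% had a lower ratio than Lipc in WD relative to CD and 2.2% in WD+7KC relative to CD+7KC. The diet comparisons and the 7KC comparisons share libraries, and their values are given side by side for that reason.

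**Figure D2:**
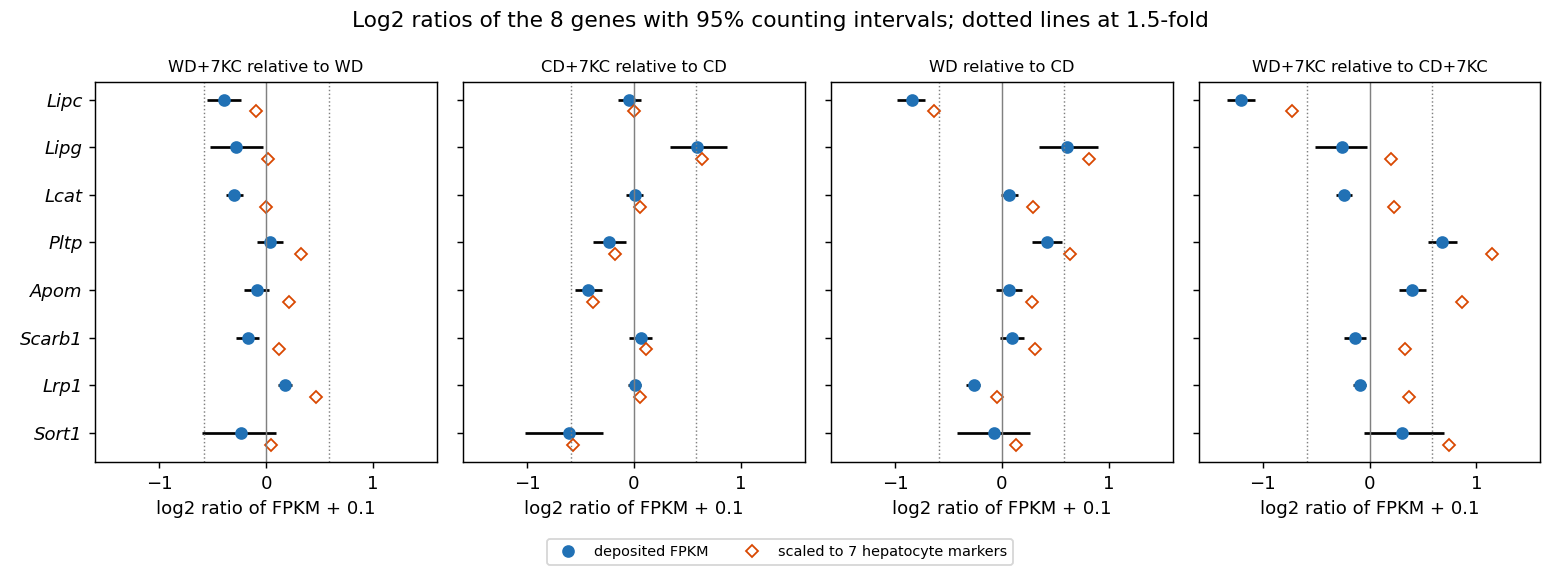
Log2 ratio of FPKM + 0.1 (horizontal axis) of the 8 genes in the 4 comparisons. Filled circles show deposited FPKM with 95% counting intervals, open diamonds the same ratio scaled to 7 hepatocyte markers, and dotted lines 1.5-fold. Lipc lies at -0.84 and -1.2 in the diet comparisons and stays past 1.5-fold under either scaling, whereas Scarb1, Lcat and Lrp1 stay within 1.5-fold throughout.

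**Figure D3:**
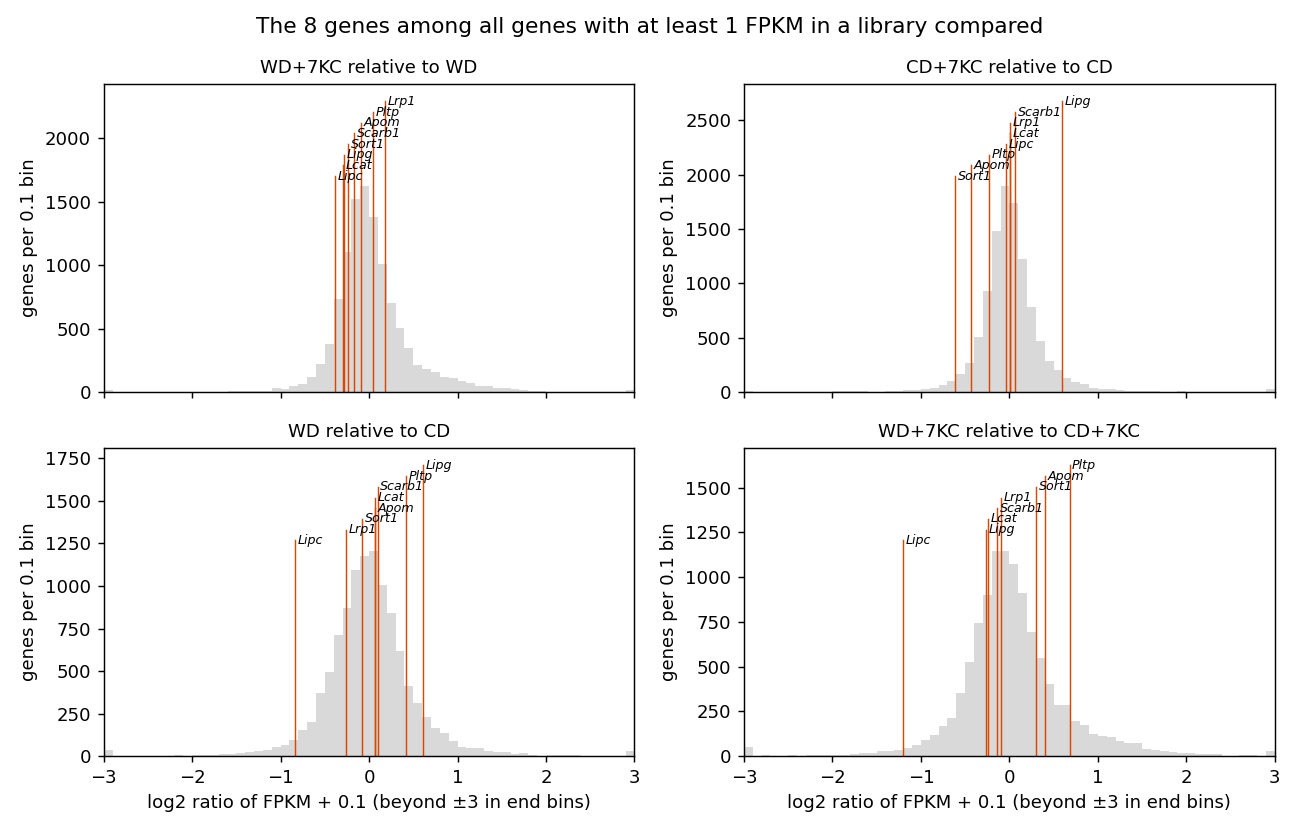
Number of genes (vertical axis, bins of 0.1) by log2 ratio of FPKM + 0.1 (horizontal axis) in each comparison, for genes with at least 1 FPKM in either library, with the 8 genes as vertical lines whose heights only separate the names. In WD+7KC relative to WD the 8 lie between -0.39 and 0.18, inside the bulk of all genes, while Lipc lies in the lower tail of both diet comparisons.

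The 7KC difference was compared between the diets as the log2 ratio in WD minus that in CD, which rests on 1 library in each of the 4 groups. It was -0.87 for Lipg (counting interval -1.23 to -0.51), -0.35 for Lipc (-0.54 to -0.17), -0.31 for Lcat (-0.42 to -0.20) and -0.23 for Scarb1 (-0.38 to -0.08). It was above 0 for Sort1 at 0.37 (-0.11 to 0.86), Apom at 0.34 (0.16 to 0.51), Pltp at 0.27 (0.07 to 0.46) and Lrp1 at 0.17 (0.08 to 0.26). On the deposited scale Lipg, Lipc, Lcat and Scarb1 thus had negative values and the other 4 genes positive ones, that of Sort1 with an interval including 0. With equal sums the value of Lipg was -0.70, that of Lipc -0.18, that of Lcat -0.13 and that of Scarb1 -0.06. With hepatocyte marker scaling the value of Lipg was -0.62, that of Lipc -0.10 and that of Lcat -0.06, while Scarb1 turned to 0.02. The 4 positive values were larger with that scaling, from 0.42 for Lrp1 to 0.61 for Sort1. With equal sums they ran from 0.35 for Lrp1 to 0.54 for Sort1. No intervals were computed for the rescaled values, so whether they exclude 0 is not given. Over the 8 genes the median was -0.032 on the deposited scale.

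Other genes of the same pathway were taken from lists of lipoprotein genes. Among 9 genes of lipoprotein lipase and its regulators, 4 had higher and 5 lower values with WD+7KC than with WD (median log2 ratio -0.21). The extremes were Gpihbp1, the capillary anchor of lipoprotein lipase, which went from 17.4 FPKM with WD to 35.7 with WD+7KC, and Apoa5, an activator of lipolysis, with 788 and 619 FPKM. The summed endothelial markers, which do not include Gpihbp1, were at 50.4 and 144 FPKM in these libraries. In this list 1 gene passed 1.5-fold upwards and none downwards. Of 13 HDL apolipoproteins and cellular HDL partners, 5 were higher and 8 lower (median -0.28), and 1 passed 1.5-fold in each direction. The extremes were Abcg1, a cholesterol exporter, with 2.07 and 4.58 FPKM, and Apoa1, the main HDL protein, with 8322 and 5501 FPKM. Of 14 endocytosis receptors and adaptors, 12 were higher and 2 lower (median 0.056), and 3 passed 1.5-fold, all upwards. Over all 15753 genes above 0 FPKM, 7908 were higher and 7845 lower, and 2230 passed 1.5-fold upwards. Among genes with at least 1 FPKM, 9.15% passed it upwards. The list was not tested against these shares. The largest ratio was that of Stab1, a scavenger receptor of sinusoidal endothelium and macrophages, with 2.61 and 8.52 FPKM, and the smallest that of Vldlr, with 2.47 and 2.35 FPKM. Of 14 family relatives of the 8 genes, 8 had values above 0 in WD or WD+7KC. Among these, 5 were higher and 3 lower (median 0.36). The median rests in part on Ptgds, Sorcs2, Pnliprp1 and Liph. None of them exceeded 0.137 FPKM in WD or WD+7KC, close to the 0.1 FPKM added before ratios were taken. Of the relatives averaging 1 FPKM or more, Lcn2, a secreted lipocalin like Apom, had the largest ratio with 155 and 241 FPKM. Lbp, a relative of Pltp that binds bacterial lipopolysaccharide, had the smallest of these, with 68.1 and 61.4 FPKM. Relatives below that level reached further in both directions, with log2 ratios of 1.25 for Ptgds and -0.38 for Liph. With equal sums of FPKM the 4 list medians were 0.01, -0.06, 0.27 and 0.53, beside 0.21 for all genes.

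In CD+7KC relative to CD, the medians of these lists were -0.10, -0.088, 0.020 and 0.069. In WD relative to CD they were 0.16, -0.093, 0.060 and 0.25, and in WD+7KC relative to CD+7KC 0.12, 0.066, 0.45 and 0.25.

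**Figure D4:**
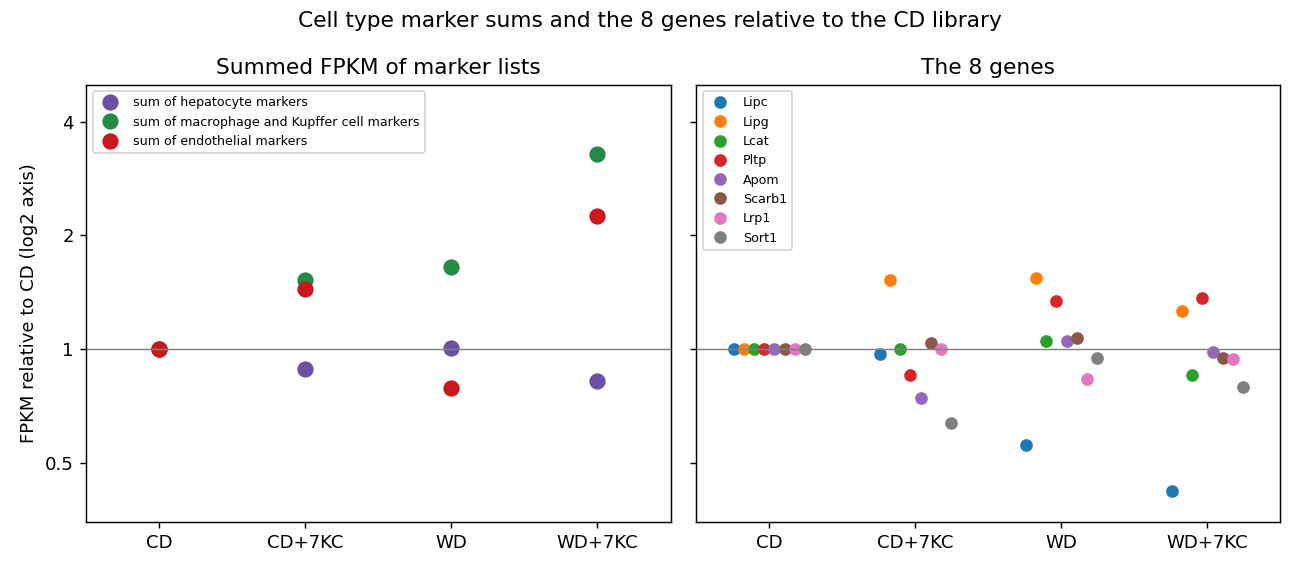
FPKM relative to the CD library (vertical axis, log2 scale) in the 4 libraries, for the summed markers of 3 cell types on the left and for the 8 genes on the right. In WD+7KC the macrophage sum is 3.29 and the endothelial sum 2.25 times that of CD, while the 8 genes range from 0.423 for Lipc to 1.37 for Pltp.

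The profile of each gene over the 4 libraries was compared with that of the 10686 genes averaging 1 FPKM or more, by the root mean square difference of centred log2 values. The nearest genes to Lipc were Car14 (0.021) and Acadsb (0.030), both lower in the WD libraries, and 30 genes lay within 0.1 of it. For Lipg they were Zfp810 (0.032) and Chchd5 (0.033), with 56 genes within 0.1. For Pltp they were Cp (0.019), which encodes ceruloplasmin, and Fam84b (0.022), with 162 genes within 0.1. Apom was nearest to Rhod (0.012) and Rrn3 (0.024), and Sort1 to Lrrc16a (0.029) and Mex3c (0.031). The flat profiles were shared most widely, with 1450 genes within 0.1 of Lcat, 1875 of Scarb1 and 1096 of Lrp1. Their nearest genes were Uchl3 and Wbscr16 for Lcat, Atp5d and Txnl4b for Scarb1, and Zkscan5 and Lrch1 for Lrp1. Among the 8 themselves, Lcat and Scarb1 were the closest pair (0.058) and Lipc and Pltp the farthest (0.80).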

How the data were processed

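Liver RNA of ob/ob mice was sequenced with 1 library in each of CD, CD+7KC, WD and WD+7KC. The authors prepared stranded libraries, mapped single-end reads to mm10 with TopHat2 2.0.13, Bowtie2 2.2.3 and SAMtools 0.1.19 and deposited Cufflinks 2.2.1 FPKM values per gene symbol. The annotation and Cufflinks options are not given in the sources used here. Log2 ratios were taken on FPKM + 0.1 and kept where either library exceeded 0 FPKM. With 1 library a group no test was run, and ratios were read against 1.5-fold.

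Depth was estimated from steps of low values, using genes with 1 RefSeq mRNA linked to GENCODE vM21 and its length minus 200 bases; 71.6% to 73.2% of these values lay within 0.1 of a whole read. For Lipc, Scarb1 and Sort1, with 2 linked mRNAs each, the shorter one was used, which gives the wider interval. Of the listed genes, Angptl8, was found under its older symbol Gm6484. Named genes were the 8 genes, the highest and lowest WD+7KC to WD ratio of each pathway list (genes averaging 1 FPKM or more), and the 2 nearest profiles of each gene. Ctsa and the adipocyte markers were named after their values had been seen. Alternatives were pseudocounts of 1, 0.01 and none, filters of 1 and 10 FPKM, scaling to equal sums (TPM), the upper quartile, median ratios, equal sums without the 20 highest genes and 7 hepatocyte markers, and a 2-fold threshold. The filter of 10 FPKM and the hepatocyte markers were chosen after seeing the data. The 8 genes and the lists were chosen with earlier results of these data known. The code was tested on simulated data. Python 3.11.15, numpy 2.4.6, pandas 2.3.3, scipy 1.17.1 and matplotlib 3.10.9 were used.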

Additional observations from a re-analysis of the deposited data

Results flagged for a closer look

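In 4 of the 8 genes the 7KC difference had opposite signs under the diets, with 1 library a group, so that the difference between the diets was not tested. The share of all genes with opposite signs was not computed, so the count is not read as particular to these genes. Over all genes above 0 FPKM, 49.8% were lower in WD+7KC relative to WD and 50.7% in CD+7KC relative to CD. Only for Lipg did both counting intervals exclude 0. The interval included 0 for Lcat under CD (-0.070 to 0.083), Scarb1 under CD (-0.044 to 0.17) and Pltp under WD (-0.084 to 0.16). Lipg was higher with 7KC under CD and lower under WD, with a difference of -0.87 between the log2 ratios (WD minus CD). Lcat had -0.31, with values near 0 under CD. Scarb1 had -0.23, being slightly higher with 7KC under CD and lower under WD. Pltp had 0.27, being lower with 7KC under CD and near 0 under WD. With hepatocyte marker scaling, Lipg and Scarb1 in WD+7KC relative to WD were above 0, at 0.015 and 0.12, so that their opposite signs were lost, while Lcat and Pltp kept theirs. Under the same scaling 3 other genes had opposite signs: Apom (0.21 under WD and -0.38 under CD), Sort1 (0.044 and -0.57) and Lipc (-0.099 and 0.0045). That made 5 of 8 genes with opposite signs, but both counting intervals excluded 0 only for Apom and Pltp.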

How the results depend on the processing

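No paired analysis was possible because each group had 1 library, and no library could be left out. Of the 32 ratios of the 8 genes, 10 changed sign under at least 1 of 8 alternatives, and none of those was past 1.5-fold. Lipc in both diet comparisons and Pltp in WD+7KC relative to CD+7KC stayed past 1.5-fold under all 8. Lipg in CD+7KC relative to CD and in WD relative to CD did so under 7 of 8 (0.52 and 0.53 with a pseudocount of 1), and Sort1 in CD+7KC relative to CD under 4 of 8, with -0.42 at a pseudocount of 1. In WD+7KC relative to CD+7KC, Apom came to pass 1.5-fold under 3 of 8 (0.61 with equal sums, 0.60 without the 20 highest genes and 0.87 with hepatocyte markers). Hepatocyte markers alone took Sort1 past it in that comparison (0.74) and Pltp in WD relative to CD (0.64).

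The deposited scale equals the median-ratio scale within 0.001, while other scalings moved the medians of the 8 genes, and the cause was not tested. In WD+7KC relative to WD the median was 0.0055 with equal sums, -0.036 without the 20 highest genes and 0.084 with hepatocyte markers. In WD+7KC relative to CD+7KC it was 0.093, 0.079 and 0.35 in that order, and in WD relative to CD 0.28 with hepatocyte markers. The median difference of the 7KC effect between the diets was 0.14, 0.13 and 0.22.

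Counts of genes past 1.5-fold, in the order WD+7KC to WD, CD+7KC to CD, WD to CD and WD+7KC to CD+7KC, were 3310, 2742, 3778 and 4597. With a pseudocount of 1 they were 911, 522, 1215 and 1855, with at least 1 FPKM 1390, 904, 1821 and 2481, with at least 10 FPKM 295, 188, 565 and 854, and past 2-fold 1418, 1059, 1511 and 2007. Hepatocyte marker scaling gave 6898 in the last comparison. In WD+7KC relative to WD, 67.4% of these genes were higher as deposited, 80.3% with equal sums and 84.0% with hepatocyte markers. The depth limits Sort1 most, with 105 to 165 estimated reads.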
